A study of Mus musculus with 8 samples.

Results

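Transcripts of 10 genes of the transforming growth factor beta (TGF-beta) system were followed in heart ventricles of 8 banded mice. They were the ligands Tgfb1, Tgfb2 and Tgfb3, the receptors Tgfbr1, Tgfbr2 and Tgfbr3, the latent binding proteins Ltbp1, Ltbp2 and Ltbp3, and Tgfbi, a secreted matrix protein named for its induction by TGF-beta. Where several probe sets were annotated to 1 symbol alone, the brightest by its mean over all 8 arrays stood for the gene. All 10 exceeded the filter on low values and were among 9607 genes tested. The ventricles came from male FVB mice, an inbred strain, aged 8 to 12 weeks, and were taken 1 week after ascending aortic banding, which narrows the aorta near the heart and raises the pressure against which the left ventricle pumps. Of these mice, 4 were labelled transgenic for CHF1/Hey2, a transcriptional repressor expressed in heart muscle from the mlc2v promoter, and 4 were wild type. Banding was done in every mouse, so its own effect has no comparison here, and each mouse gave 1 Affymetrix Mouse Genome 430 2.0 array of total ventricular RNA. The values are the authors' deposited log2 expression values, and arrays give no read depth, so their number limits the precision.

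TGF-beta is secreted in a latent form. Each ligand is cleaved from its own propeptide but stays wrapped in it, and a latent TGF-beta binding protein ties this complex to the extracellular matrix until integrins, proteases or thrombospondin release the ligand. The free ligand brings together the type II receptor Tgfbr2 and the type I receptor Tgfbr1, which phosphorylates Smad2 and Smad3. In the pressure-loaded heart this pathway is known for activating fibroblasts and for the deposition of collagen.

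Across the whole series, transgenic replicates 2 and 3 stood apart. The correlation of replicate 2 with the rest was between 0.788 and 0.840 across genes, and 37.2% of its genes differed by more than 2-fold from what the other arrays showed (their median), against 9.27% in replicate 3 and 72 to 149 genes in each remaining array. Hey2 itself lay between 5.70 and 6.26 in transgenic arrays and between 5.68 and 6.76 in wild-type arrays, a difference of -0.11 (SE 0.257), so it did not check the labels. It is not known whether the transgene is detected by its probe set, and "transgenic" below means the arrays so labelled. The myocyte markers Myh6, Actc1 and Tnnt2 were at 15.26 or more in all 8 arrays. Group differences of the members are also given without either or both of these replicates.

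The promoters of Tgfb2 and Ltbp2 are shown because these were the 2 members farthest below the wild-type mean in transgenic replicate 3, while in replicate 2 they lay on opposite sides of it. The windows run 5′ to 3′ on the strand of the gene, from 250 bases before to 50 bases after the transcript start, and come from RefSeq (GRCm38.p6, the C57BL/6J reference, not FVB). That of Tgfb2 is chr1:186705940-186706239 on the minus strand and that of Ltbp2 is chr12:84876442-84876741 on the minus strand. Capitals mark 4 motifs searched on both strands, which did not overlap each other here: the E-box CACGTG, the class C site CACGCG, the Smad box CAGAC, which reads as GTCTG on the other strand, and the TATA box TATAAA.
Tgfb2 promoter: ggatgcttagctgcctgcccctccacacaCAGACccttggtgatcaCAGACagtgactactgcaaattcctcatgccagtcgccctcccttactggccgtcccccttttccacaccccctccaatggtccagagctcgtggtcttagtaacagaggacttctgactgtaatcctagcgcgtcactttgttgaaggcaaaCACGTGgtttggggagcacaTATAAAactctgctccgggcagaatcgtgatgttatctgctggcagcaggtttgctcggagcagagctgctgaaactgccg
Ltbp2 promoter: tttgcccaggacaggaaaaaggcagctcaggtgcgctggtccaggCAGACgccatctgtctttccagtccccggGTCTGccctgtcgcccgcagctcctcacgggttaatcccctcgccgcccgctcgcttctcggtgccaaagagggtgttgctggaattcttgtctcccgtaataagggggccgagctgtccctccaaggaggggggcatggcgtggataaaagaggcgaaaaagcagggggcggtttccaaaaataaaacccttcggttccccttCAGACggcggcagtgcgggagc

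E-boxes and class C sites are sequences to which Hey and related repressors can bind, and the Smad box is a short sequence bound by Smad3 and Smad4. The Tgfb2 window held 1 CACGTG, at position -51 from the transcript start, 1 TATAAA at -31 and 2 CAGAC. The Ltbp2 window held 3 CAGAC, 2 of them as CAGAC on the strand shown, and neither CACGTG nor TATAAA. Over all 32851 promoter windows of the same length, 7.15% held CACGTG, 9.27% CACGCG, 13.6% TATAAA and 49.6% CAGAC. RefSeq windows were matched for 8 of the 10 members, 10 windows in all, of which 1 held CACGTG, 0 held CACGCG, 1 held TATAAA and 8 held CAGAC. A match describes the letters of the window and is not a measured binding site.

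The comparison of hearts labelled transgenic with wild-type hearts asked how CHF1/Hey2 in the myocardium bears on transcripts under pressure load. No member of the TGF-beta system passed the test. With limma and Benjamini-Hochberg adjustment over all 9607 genes, 0 of 10 members were called, as were 0 genes of the whole table (0%), and 0 members had an unadjusted p under 0.05 against 1.59% of all genes. That last count moved with 1 array: without transgenic replicate 4 it was 2 members (Tgfb2 and Tgfbr1) against 5.68% of all genes, and with array weights, which count outlying arrays less, 2 members (Tgfbr1 and Ltbp1) against 15.9%. For 0 of 10 members did the 2 groups of arrays separate without overlap, against 2.48% of all genes. By the sign of the group means, 3 members were higher and 7 lower in transgenic arrays, with a median difference of -0.13 on the log2 scale, where 43% of all genes were lower and their median was 0.06. Without transgenic replicate 3 the members' median was 0.26, without replicate 2 it was -0.38, and without both it was 0.05, so its sign rested on these arrays.

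**Figure D1:**
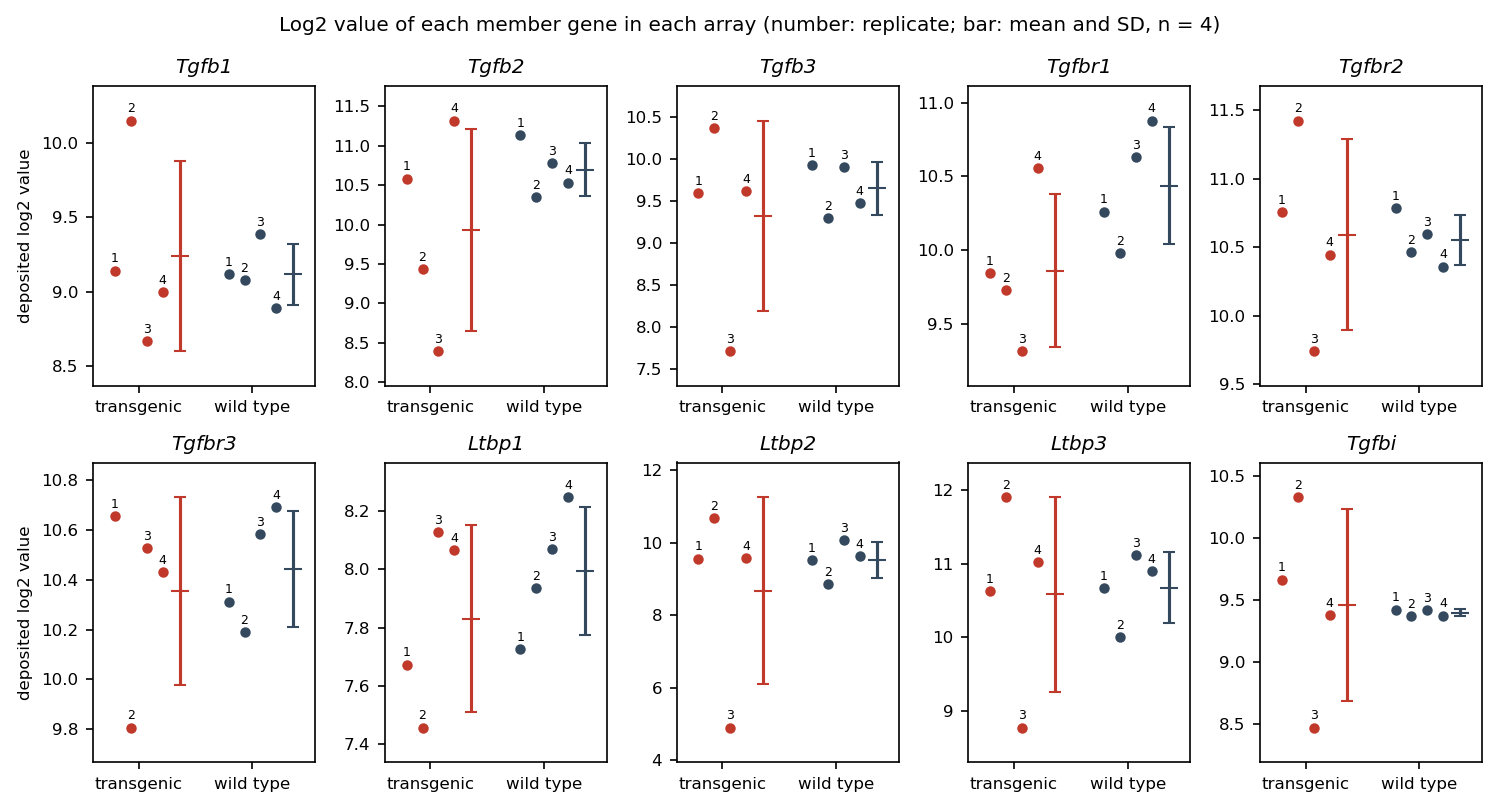
Deposited log2 value (vertical axis, a separate scale for each gene) of the 10 member genes in the arrays labelled transgenic (red, left) and wild type (blue, right). Each point is 1 mouse with its replicate number, and the bar gives the mean and SD of 4 arrays; in 8 of the panels transgenic replicate 3 is below every wild-type point.

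Tgfb1, the ligand most studied in fibrosis, read 9.12, 9.07, 9.38 and 8.89 (log2) in wild-type replicates 1 to 4. In transgenic replicates 1 to 4 it read 9.14, 10.15, 8.67 and 8.996. Replicate 2 was above all wild-type arrays and replicate 3 below all of them, while replicates 1 and 4 were inside the wild-type range. The mean was 9.24 ± 0.64 in the transgenic group and 9.11 ± 0.20 in wild type (SD, n = 4 each), giving a difference of 0.12 (SE 0.310) within the spread between mice (limma adjusted p = 0.889). Without transgenic replicate 2 the difference was -0.18.

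Tgfb2, a ligand that cardiac myocytes and the endocardium make during heart development, gave 10.58, 9.43, 8.39 and 11.32 in transgenic replicates 1 to 4, against 11.13, 10.35, 10.78 and 10.53 in wild-type replicates 1 to 4. Arrays labelled transgenic spanned both ends of the scale: replicates 2 and 3 were below every wild-type array and replicate 4 above every one. Its mean of 9.93 ± 1.29 in the transgenic group and that of 10.70 ± 0.34 in wild type (SD, n = 4 each) differed by -0.77 (95% confidence interval -2.07 to 0.54), and the difference did not pass (limma adjusted p = 0.813; exact two-sided permutation p = 0.343, where 4 arrays against 4 allow no p below 0.0286). The other 3 probe sets of Tgfb2 above the filter also had replicates 2 and 3 below and replicate 4 above all wild-type arrays. Replicate 3 was the lower of the pair in 1450922_a_at, as in the main probe set, and replicate 2 in 1450923_at and 1438303_at, where it was under the level of 5. Their differences were -0.92, -1.62 and -1.16. The probe set 1450923_at was 4.80 in transgenic replicate 2, against 8.52 or more in the wild-type arrays. Without transgenic replicates 2 and 3 the difference of the main probe set was 0.25, so its sign rested on these arrays.

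Tgfb3, the third ligand, had values of 9.59, 10.37, 7.71 and 9.62 in transgenic replicates 1 to 4, against 9.93, 9.29, 9.90 and 9.47 in wild type. Replicate 3 alone lay 3.82-fold below the wild-type mean, while replicate 2 lay 1.65-fold above it. The group difference was -0.33 (SE 0.508, limma adjusted p = 0.833), and without transgenic replicate 3 it was 0.21. Tgfb2 and Tgfb3 thus shared a low value in replicate 3 and differed in replicate 2, where Tgfb2 was 1.26 below and Tgfb3 0.72 above its own wild-type mean.

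Tgfbr1, the type I receptor kinase also called Alk-5, had the smallest p of the 10 members. Its values were 9.84, 9.73, 9.31 and 10.56 in transgenic replicates 1 to 4 and 10.26, 9.98, 10.63 and 10.88 in wild-type replicates 1 to 4. In transgenic replicates 1, 2 and 3 it was below every wild-type array, and replicate 4 was inside the wild-type range. The difference was -0.58 (95% confidence interval -1.27 to 0.11), and it did not pass (unadjusted limma p = 0.0906, adjusted p = 0.813; exact permutation p = 0.143). It kept its sign without transgenic replicate 2 (-0.53), without replicate 3 (-0.39) and without both (-0.24). A second probe set, 1420894_at, lay close to the filter level of 5 and differed by -0.17. There transgenic replicates 2 and 3 were below the wild-type range of 5.03 to 5.27. Replicate 1 was inside it at 5.11 and replicate 4 above it at 5.66. With limma's array weights, which give outlying arrays less weight, Tgfbr1 differed by -0.67 with an adjusted p of 0.229.

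Tgfbr2, the type II receptor that binds the ligand first, was at 10.76, 11.42, 9.74 and 10.45 in transgenic replicates 1 to 4, against 10.78, 10.46, 10.60 and 10.36 in wild type. Again replicate 2 was the highest and replicate 3 the lowest of all 8 arrays. The mean of 10.59 ± 0.70 in the transgenic group and that of 10.55 ± 0.18 in wild type (SD, n = 4 each) differed by 0.04 (SE 0.329, limma adjusted p = 0.966), and without transgenic replicate 2 the difference was -0.24. Its second probe set, 1425444_a_at, did not place replicate 3 below wild type: it gave 7.03, 8.04, 6.08 and 6.09 in transgenic arrays and 6.94, 6.58, 5.74 and 5.84 in wild type.

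Tgfbr3, betaglycan, a co-receptor that presents Tgfb2 to the type II receptor, followed another order. It had 10.65, 9.81, 10.53 and 10.43 in transgenic replicates 1 to 4 and 10.31, 10.19, 10.58 and 10.69 in wild-type replicates 1 to 4. Only transgenic replicate 2 was outside the wild-type range, on the low side. The difference of -0.09 (SE 0.227) did not pass (limma adjusted p = 0.889), and it was 0.09 without replicate 2. A second probe set, 1425620_at, did not repeat this order. It gave 6.28, 6.05, 6.49 and 5.87 in transgenic arrays, against 5.89 to 6.24 in wild type. There replicate 2 was inside the wild-type range and replicate 3 above it.

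Of the latent binding proteins, Ltbp1, which ties latent TGF-beta to fibrillin and fibronectin fibres, varied least. It gave 7.67, 7.46, 8.13 and 8.07 in transgenic replicates 1 to 4, against 7.73, 7.94, 8.07 and 8.25 in wild type, so replicates 1 and 2 were below every wild-type array and replicates 3 and 4 were not. The difference was -0.16 (SE 0.210, limma adjusted p = 0.814), and it was -0.04 without transgenic replicate 2. Only 1 of its 3 probe sets exceeded the filter.

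Ltbp2, a relative that is found on elastic fibres and does not bind the latent ligand, had the widest spread of the members. Its values were 9.56, 10.68, 4.90 and 9.58 in transgenic replicates 1 to 4 and 9.51, 8.86, 10.06 and 9.64 in wild-type replicates 1 to 4. Transgenic replicate 3 was under the filter level of 5, so its distance is given as a bound: taken at 5, it was at least 22.9-fold lower than the wild-type mean. In contrast, replicates 1 and 4 lay within 0.06 of that mean on the log2 scale. The mean of 8.68 ± 2.58 in the transgenic group and that of 9.52 ± 0.50 in wild type (SD, n = 4 each) differed by -0.84 (95% confidence interval -3.36 to 1.68; limma adjusted p = 0.816). Without transgenic replicate 3 the difference was 0.42, and without replicates 2 and 3 it was 0.05. The gene has 1 probe set on this array, so no second reading of the low value exists.

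Ltbp3, which binds latent TGF-beta and helps its secretion, had 10.63, 11.90, 8.77 and 11.02 in transgenic replicates 1 to 4, against 10.67, 10.001, 11.12 and 10.90 in wild type. Replicate 2 was the highest and replicate 3 the lowest of the 8 arrays, 2.35-fold above and 3.74-fold below the wild-type mean. A second probe set, 1418049_at, repeated this order at 10.06, 11.10, 8.03 and 9.93 in transgenic arrays, against 10.12, 9.42, 10.31 and 9.92 in wild type. The groups differed by -0.09 (SE 0.603, limma adjusted p = 0.959), by 0.51 without transgenic replicate 3, by -0.53 without replicate 2 and by 0.15 without both.

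Tgfbi, whose protein carries integrin-binding sequences and sits on collagen fibres, was nearly constant in wild type. It had 9.66, 10.33, 8.47 and 9.38 in transgenic replicates 1 to 4 and 9.42, 9.37, 9.42 and 9.37 in wild-type replicates 1 to 4, a wild-type SD of 0.028 where the median gene tested had 0.19. Transgenic replicates 1 and 2 were above that narrow range and replicate 3 was below it. The other 3 probe sets of Tgfbi had wild-type SDs of 0.18, 0.08 and 0.15, so the narrow range was that of the chosen probe set. All 4 placed replicate 2 above and replicate 3 below every wild-type array. The difference was 0.07 (SE 0.349, limma adjusted p = 0.946), and without transgenic replicate 2 it was -0.22.

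**Figure D2:**
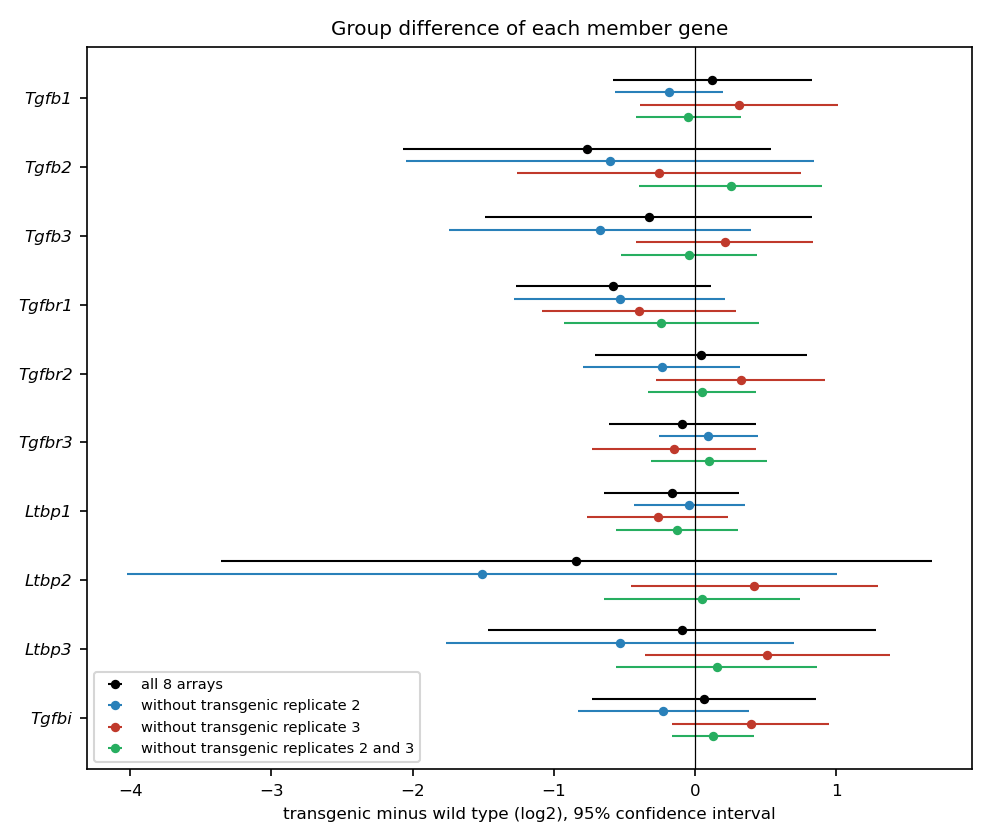
Transgenic minus wild-type difference of each member gene (horizontal axis, log2) with its 95% confidence interval from limma, for all 8 arrays and without transgenic replicate 2, replicate 3 or both. Every interval crosses 0, and the points of Ltbp2 run from -1.51 without replicate 2 to 0.42 without replicate 3.

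Transgenic replicate 3 was under every wild-type array for 8 of 10 members, against 33.5% of all genes, and over every one for 0, against 29.8%. Replicate 2 was above every wild-type array for 6 members, against 52% of all genes, and below for 4, against 33.5%. By the probe set that stood for each gene, the members fell into 3 orders across the arrays. For Tgfb1, Tgfb3, Tgfbr2, Ltbp2, Ltbp3 and Tgfbi, transgenic replicate 2 was above and replicate 3 below every wild-type array, which held for 6 of 10 members and 18.1% of all genes tested. Tgfb2 and Tgfbr1 were below every wild-type array in both. Tgfbr3 and Ltbp1 were below wild type in replicate 2 and inside the wild-type range in replicate 3. The second probe sets of Tgfbr2 and Tgfbr3 did not repeat the order of their gene. These orders were read from the values and carry no test.

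In transgenic replicate 3 taken alone, 5 members (Tgfb2, Tgfb3, Tgfbr1, Ltbp2 and Ltbp3) lay over 2-fold below the wild-type mean, against 6.26% of all genes, and 0 lay over 2-fold above it, against 2.47%. In replicate 2, Tgfb1, Ltbp2 and Ltbp3 lay over 2-fold above that mean, against 17.8% of all genes, and Tgfb2 over 2-fold below it, against 20.5%, shares near that background. The members' median distance from the wild-type mean was 0.80 on the log2 scale in replicate 2 and -1.03 in replicate 3, whereas it was -0.01 in replicate 1 and 0.02 in replicate 4. The medians of all genes in replicates 2 and 3 were 0.29 and -0.02. Replicates 1 and 4 fell inside the wild-type range for 7 and 9 of 10 members, against 66.1% and 64.4% of all genes.

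**Figure D3:**
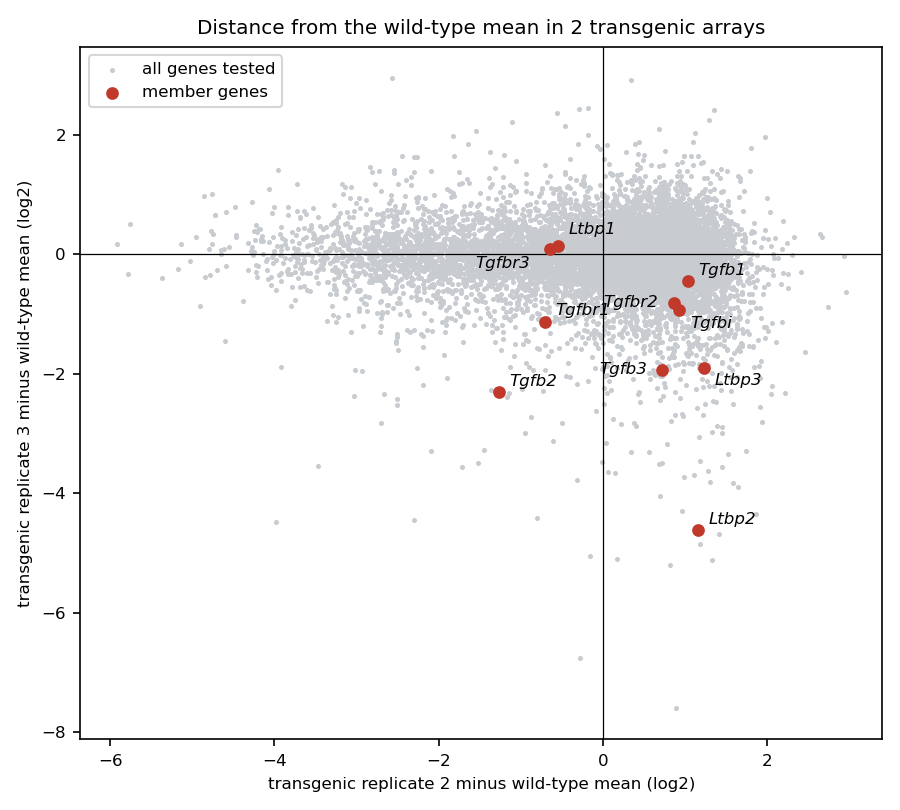
Distance from the wild-type mean (log2) in transgenic replicate 2 (horizontal axis) and in transgenic replicate 3 (vertical axis) for all 9607 genes tested (grey) and the 10 members (red). Of the members, 6 lie at the lower right (higher in replicate 2, lower in replicate 3), with Ltbp2 lowest (its replicate 3 value was under the filter level), while Tgfb2 and Tgfbr1 lie at the lower left.

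The wild-type arrays differed among themselves in a shared direction too. All 10 members were below the wild-type mean in wild-type replicate 2 and above it in wild-type replicate 3, where 55.5% and 50.1% of all genes were so, and 35.5% of genes did both. The distances were small. The members' median was -0.30 in wild-type replicate 2 and 0.17 in wild-type replicate 3, both smaller than the distances of transgenic replicates 2 and 3.

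Among pairs of members, the profiles of Tgfbr2 and Tgfbi over the 8 arrays were the most alike, with a root mean square difference of 0.11 on the log2 scale after each gene's wild-type mean was subtracted. Tgfb1 and Tgfbr2 followed at 0.19, Tgfbr3 and Ltbp1 at 0.21, and Tgfb3 and Ltbp3 at 0.31. Over all genes tested, the profile closest to that of Tgfb3 was Mmp14, a membrane-bound matrix metalloproteinase, at 0.094. Closest to Ltbp2 were Pamr1 at 0.15, Cilp, a matrix protein also found in cartilage, at 0.29 and Pdgfrl at 0.39. Closest to Ltbp3 was Itgb5, the integrin beta 5 chain, at 0.16, and closest to Tgfbi were Edem2 at 0.085, Ptms at 0.092 and Agrn at 0.10. Nearest to Tgfb2 were Nt5e, the ectonucleotidase CD73, at 0.28, Snap91 at 0.30 and P3h2, a collagen prolyl hydroxylase, at 0.34. For Tgfbr1 they were Gnao1, Dcbld2 and Foxp1, between 0.21 and 0.22. These likenesses describe 8 arrays and rest largely on transgenic replicates 2 and 3.

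Other genes of the pathway were read from 5 lists, and 0 genes of any list passed in either direction. The list of the latent complex, of activation and of extracellular control had 29 of 36 genes tested, with 9 higher and 20 lower by the sign of the means. Its median difference was -0.23, but 0.14 without transgenic replicate 3, and it lay at 0.71 in replicate 2 and -1.29 in replicate 3. Lox, which cross-links collagen, averaged 9.71 ± 1.86 in the transgenic group and 11.66 ± 0.46 in wild type (SD, n = 4 each), which differed by -1.95 (limma adjusted p = 0.813), or -0.53 without replicates 2 and 3. Fbn2, a fibrillin, differed by -0.81 and Itgb8, a chain of a TGF-beta activating integrin, by -0.96, both with transgenic means under the level of 5. Without replicates 2 and 3, Itgb8 differed by -0.14 and Fbn2 by -0.83.

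Receptors and receptor partners of the wider superfamily, with 16 of 21 genes tested, had 7 higher and 9 lower and a median difference of -0.05. Their median distance was -0.11 in transgenic replicate 2 and 0.04 in replicate 3, medians of smaller size than those of the members. By the probe set that stood for each gene, single genes spread more widely than the members in replicate 2. They ran from -4.78 for Acvr2a, which was under the level of 5 there, to 1.49 for Acvrl1. The members ran from -1.26 for Tgfb2 to 1.23 for Ltbp3. Other probe sets of members reached farther there. Tgfb2 stood at -4.07 in 1450923_at, also under the level of 5, and Tgfbr2 at 1.76 in 1425444_a_at. Eng, endoglin, a co-receptor of endothelial cells, differed by 0.34 (SE 0.249), Bambi, a decoy receptor, by 0.46 and Dab2, an adaptor protein of endocytosis, by -0.44. Without replicates 2 and 3, Dab2 was at 0.01, Eng at 0.16 and Bambi at 0.38. Of the wider ligands, 4 of 18 genes were tested. Inhba, the activin beta A chain, differed by -1.01, Bmp4 by -0.87 and Bmp6 by 0.32. Without replicates 2 and 3 these differences were -0.15, 0.05 and 0.09. In transgenic replicate 2, Inhba at 4.51 and Bmp4 at 4.78 were under the level of 5.

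Smads, their cofactors and ubiquitin ligases had 29 of 33 genes tested, 14 higher and 15 lower, with a median difference of -0.0045 and array medians between -0.13 and 0.12. Single genes in transgenic replicate 2 ran from -3.57 for Rock1 to 1.44 for Tgif1. Smad6, an inhibitory Smad, averaged 6.82 ± 0.37 in the transgenic group and 6.15 ± 0.46 in wild type (SD, n = 4 each). It differed by 0.68 (limma adjusted p = 0.813), and it stayed at 0.58 without replicates 2 and 3. Smad3, the receptor-activated Smad of this pathway, differed by 0.46 (SE 0.287), or 0.24 without these arrays. Skil, a Smad corepressor, differed by -0.32, or -0.07 without them.

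Genes that TGF-beta commonly induces in fibroblasts had 30 of 35 tested, 8 higher and 22 lower, with a median difference of -0.50. The median of those tested was -1.79 from wild type in transgenic replicate 3 and 0.63 in replicate 2, and the median difference was 0.07 without replicate 3 and -0.13 without both. Nox4, an oxidase that produces hydrogen peroxide, averaged 5.51 ± 2.36 in the transgenic group and 7.69 ± 0.89 in wild type (SD, n = 4 each), so it differed by -2.19, which was -0.15 without replicates 2 and 3. Fap, a protease of activated fibroblasts, differed by -0.83 and Postn, periostin, by -1.35, or by -0.29 and -0.18 without these arrays. The limma adjusted p was 0.813 for each gene of these lists whose group difference is given.

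**Figure D4:**
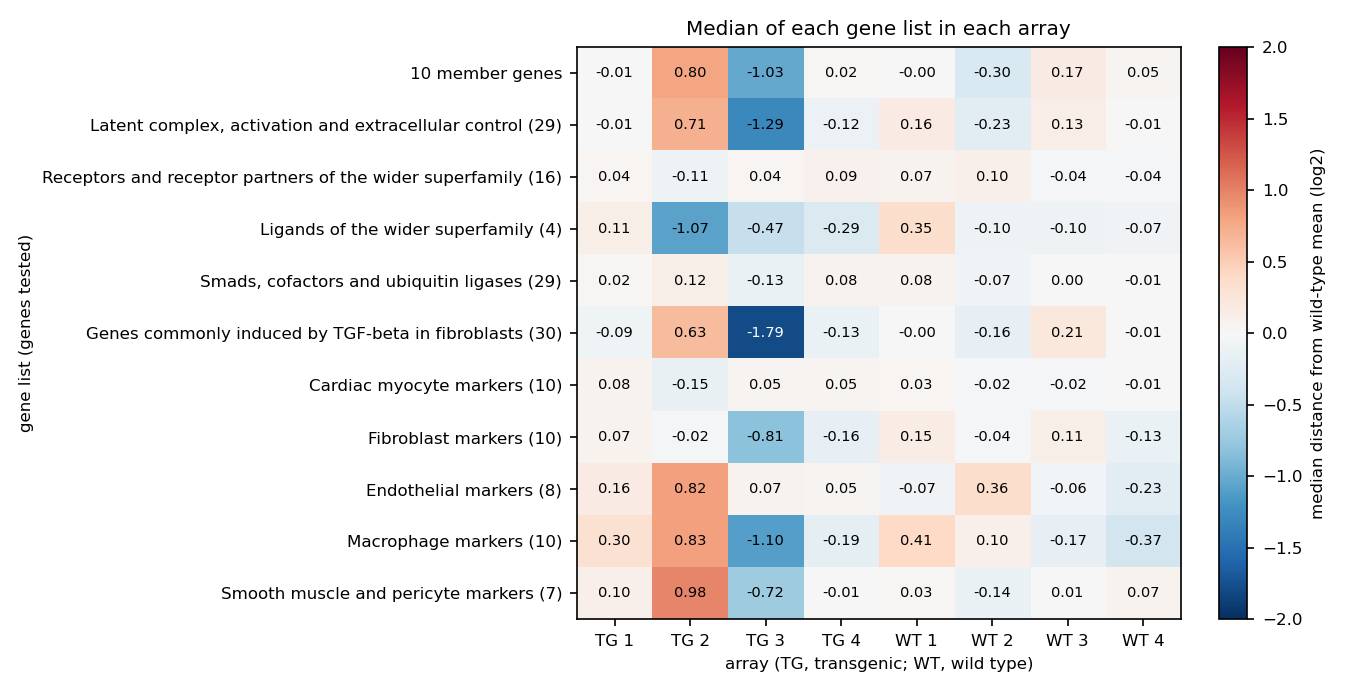
Median distance from the wild-type mean (log2, colour and number) of the members, of the 5 pathway lists and of the marker lists with at least 5 tested genes (rows, number of genes tested) in each array (columns). Above 0 in transgenic replicate 2 and below 0 in replicate 3 are the members, the extracellular list and the induced genes. The macrophage and the smooth muscle markers do the same, as does the list of Smads and cofactors at 0.12 and -0.13. The myocyte markers lie between -0.15 and 0.08.

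Each of the 5 marker sums given next had its lowest or its highest level in transgenic replicate 2 or 3. In ventricular RNA, fewer cells of a type and less RNA per cell cannot be told apart. All 10 fibroblast markers were tested. Their summed level on the linear scale was 29194 in transgenic replicate 3 and from 75101 to 93986 in the other 3, against 80014 to 96445 in wild type. Brighter genes weigh more in such sums. The log2 distance of transgenic replicate 3 from the wild-type mean ran from -3.66 for Col1a1 to -0.08 for Dpt, with a median of -0.81. Among the fibroblast markers, Dcn, Lum, Col1a1, Col1a2 and Col3a1 also belong to the pathway lists, as Acta2 and Tagln of the smooth muscle list do. All 10 macrophage markers were tested, with a sum of 8376 in transgenic replicate 3 and 28823 in replicate 2, against 13042 to 21787 in wild type. They did not all share this direction. In replicate 2 Mrc1 and Cd163 stood at -1.97 and -2.10 from the wild-type mean (log2), while the list's median was 0.83. In replicate 3 Cd163 stood at 0.36, while the median was -1.10. The 7 smooth muscle and pericyte markers summed to 17802 in transgenic replicate 3 and 28661 in replicate 2, against 21579 to 22702 in wild type. Of these, Rgs5 and Myh11 stood at -1.61 and -0.50 in replicate 2, while the list's median was 0.98. The 8 endothelial markers summed to 8239 in transgenic replicate 2 and to between 5106 and 5573 in the other 3, against 4425 to 6343 in wild type. Kdr and Tek stood at -0.33 and -0.19 in replicate 2, while the list's median was 0.82. The 10 myocyte markers summed to 283616 in transgenic replicate 2 and to 349530 or more in the other 3, against 332738 to 351614 in wild type. In replicate 2 they ran from -1.52 for Pln to 0.17 for Cox6a2, with a median of -0.15.

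Platelets carry much Tgfb1, and of their 6 markers only Pf4 exceeded the filter. It was at 8.61 to 9.13 in transgenic arrays and 8.28 to 8.92 in wild type. Itga2b, Gp9 and Treml1 were at 2.06 or less in all 8 arrays, and Ppbp and Gp1bb reached 4.93 and 3.53. The lymphocyte markers on the array were at 3.68 or less in all 8. Erythroid cells were represented by Alas2 alone, at 5.67 to 8.63 in transgenic arrays and 6.93 to 8.05 in wild type. Hba-a1 and Slc4a1 did not exceed the filter, at 2.42 or less and 3.43 or less. Of the epicardial and valve list, 2 of 6 markers, Wt1 and Cpxm2, were tested, and their sum was 1448 in transgenic replicate 3 and from 258 to 539 in the other 3, against 225 to 777 in wild type. Of the atrial list, 4 of 5 were tested, with 0 called, 3 higher and 1 lower by the sign of the means, and a median difference of 0.65, or 0.45 without replicates 2 and 3. Myl7, Myl4 and Sln differed by 0.71, 0.67 and 0.64 (limma adjusted p = 0.813 for each), and by 0.48, 0.49 and 0.41 without these arrays. Nppa, a natriuretic peptide that loaded ventricles also make, differed by -0.44, or 0.13 without them, and Bmp10 was at 2.06 or less in all 8. The atrial sum was 13780 in transgenic replicate 3 and from 38180 to 43236 in the other 3, against 28805 to 42488 in wild type. This sum follows Nppa, the brightest of the 4. In replicate 3 Nppa stood at -2.03 from its wild-type mean on the log2 scale. There Myl7, Myl4 and Sln stood at 1.09, 0.46 and 0.86, above their wild-type means. The part of these cell types in the members' values was not tested.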

How the data were processed

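Ventricular RNA of 8 mice was hybridised to Affymetrix arrays. The log2 values were deposited by the authors, who used GCRMA per the submitters' processing notes (no version was found). It corrects background by probe base composition and normalizes arrays by quantiles, and values of silent probe sets collect near a low floor. From the 45101 probe sets, those with 1 gene symbol in the platform annotation and a log2 value above 5 in at least 4 of the 8 arrays were kept, and per gene the one with the highest mean, leaving 9607 genes. Groups came from the sample titles. Transgenic minus wild type was tested in limma (version 3.58.1, R 4.3.3; lmFit, eBayes without trend, no block), with Benjamini-Hochberg adjustment at 0.05 over all genes. Some of the steps were tested on simulated data. No outcome of that test is given here, so it does not show how the steps handle outlying arrays. Pathway and marker lists named up to 3 genes each by smallest p, and profiles were compared for members with an SD above 0.5 over the 8 arrays. Members, lists and tests were chosen with earlier results of these data known, and the promoter motifs after the values were seen. The replicate numbers of the titles were checked as pairs over all genes: the correlations of their deviations were 0.30, -0.0056, -0.33 and 0.20. Unmatched arrays were not set beside them, so these values cannot settle whether the numbers pair the arrays. Alternatives changed the filter, scaling, variance model, weights, block, probe set rule, test and threshold, and left out arrays.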

Additional observations from a re-analysis of the deposited data

How the results depend on the processing

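No member was called under any alternative run, with limma adjusted p from 0.229 for Tgfbr1 with array weights to 1.00. The number of genes called stayed at 0 except with array weights, where 1 gene of the 9607, Inmt, was called (adjusted p = 0.0373). The genes at an unadjusted p under 0.05 numbered 153, and between 33 (without wild-type replicate 3) and 544 (without transgenic replicate 4) with single arrays left out. Leaving out single arrays gave 0 calls throughout and moved the members' median difference between -0.38 and 0.26. Of 200 recomputed member differences, 20 turned their sign. Without transgenic replicates 2 and 3 this held for Tgfb1 (-0.046), Tgfb2 (0.25), Tgfbr3 (0.10), Ltbp2 (0.0499) and Ltbp3 (0.15). Tgfbr2 turned with quantile normalization (-0.015), and Tgfbr3 with array weights (0.096), with the mean of its probe sets (0.0051) and in probe set 1425620_at (0.099). Across single arrays left out, the differences ran from -0.18 to 0.31 for Tgfb1, -1.23 to -0.25 for Tgfb2, -0.67 to 0.21 for Tgfb3, -0.81 to -0.39 for Tgfbr1, -0.24 to 0.32 for Tgfbr2, -0.19 to 0.093 for Tgfbr3, -0.26 to -0.039 for Ltbp1, -1.51 to 0.42 for Ltbp2, -0.53 to 0.51 for Ltbp3 and -0.22 to 0.40 for Tgfbi. For Tgfb1, Tgfb3, Tgfbr2, Ltbp2, Ltbp3 and Tgfbi the ends were the arrays without transgenic replicate 2 (lowest) and without replicate 3 (highest), and the causes were not tested. Tgfbr1 and Ltbp1 kept their sign in every setting run. With the replicate block, 0 genes and 0 members were called, and the members' median difference was -0.13, as without it. Whether the replicate numbers pair the arrays was not settled. Low values limit the reading of Ltbp2 in transgenic replicate 3, which at 4.90 lay under the filter level of 5.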
